A study of Mus musculus with 27 samples.

Results

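Glycolysis and glycogen metabolism in mouse skeletal muscle were followed through 36 genes after an injury by cardiotoxin (CTX), a snake venom toxin that lyses myofibres. The members were picked by symbol from the pathway, 1 row of the expression tables for each symbol, out of 55852 genes in the table of injured muscle and 55677 in the table that holds the controls. They comprised 15 forms that mature muscle uses, called muscle forms here, 14 forms that are ubiquitous or typical of other tissues, and 7 steps with a single gene or no muscle-specific form. These classes do not always follow the level. Pfkfb3, classed with the ubiquitous forms, had a mean of 117.9 TPM in the controls, and the muscle form Pfkfb1 had 26.6 TPM. Both tables give TPM, a level already divided by transcript length and set to the same total in every library, so that levels can be set side by side between genes.

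The groups were non-injured contralateral wild-type (WT) muscle (control), CTX-injured WT muscle and CTX-injured muscle of Gsdme knockout (KO) mice, with the injured muscle taken on D1, D4, D7 and D14 after the injection and 3 libraries in each of the 9 groups. Gsdme codes for gasdermin E, a pore-forming protein that executes pyroptotic cell death. WT mice were of the C57BL/6J strain, all mice were male, and WT and KO animals were littermates from crosses of heterozygotes with a body-wide deletion. The injured muscle was the gastrocnemius, though the sample descriptions also speak of the thigh, and the labels of the KO libraries read both knockout and knockdown. No age was given in the sources used here, and no control library came from a KO mouse. Control and WT D1 libraries may share animals, but the labels do not tie them to each other.

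Glycolysis breaks glucose down to pyruvate, which fast muscle fibres reduce to lactate and export, while glycogen is the glucose store that phosphorylase opens when a fibre contracts. Vertebrates carry several genes for most of these steps. Muscle fibres rely on their own set (Pygm, Pfkm, Eno3, Pgam2, Slc2a4), whereas leukocytes, fibroblasts and proliferating myoblasts use the widespread set (Pygl, Pfkl, Eno1, Pgam1, Slc2a1), so the balance between the sets follows both the cells present and the state of the fibres.

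The libraries held 12329 to 14704 genes at 1 TPM or more in injured muscle and 11785 to 12033 in the controls, and the 50 most abundant genes took 25.4 to 61.4% of all TPM in injured muscle. Read numbers are not given, so the depth is unknown. Gsdme stood at 1.46 to 4.85 TPM in the WT libraries and at 0.95 to 2.17 TPM in the KO libraries, and its groups overlapped on D14. All 10 mature myofibre markers (Ckm, Acta1, Mb, Tnnt3, Tnni2, Myh1, Myh4, Pvalb, Atp2a1, Myl1) were present in every library, with a summed level of 167674 to 175491 TPM in the controls. Libraries of the same group differed in their cells. WT D4 replicate 1 had 38532 TPM of myofibre markers and 4491 TPM of 6 macrophage and leukocyte markers (Ptprc, Itgam, Adgre1, Cd68, Lyz2, Csf1r), and KO D4 replicate 2 had 131877 and 368 TPM of the same lists. The other D4 libraries lay between them on both lists, so most limma results of members that involve D4 are given with and without this pair of libraries. Shares, ratios to markers and genes outside the members are given on D4 only with the pair. WT D1 replicate 3 also stood close to the controls in myofibre markers, with 168624 TPM in the table that holds both and 679 TPM of leukocyte markers.

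In control muscle the members together made up 5.69 to 6.67% of all TPM. Aldoa, the muscle aldolase, led with a mean of 20267 TPM, followed by Gapdh with 16862, Eno3 with 4958, Pygm with 3736 and Pgam2 with 3678 TPM. At the low end were Aldoc, the brain aldolase, with 0.45 TPM, and Hk3, a hexokinase of myeloid cells, with 0.39 TPM. The members' summed share fell to 2.32% in WT D4 replicate 1 and reached 6.87% in KO D7 replicate 2, the lowest and the highest of all libraries.

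One day after injury most widespread forms rose and most muscle forms fell. In the isozyme groups read below as shares, the muscle form still kept the larger part. Of 35 members tested (Aldoc did not pass the filter on low values in this table), 10 were higher and 12 lower on WT D1 than in control muscle by limma at a Benjamini-Hochberg adjusted p under 0.05, beside 55.4% and 5.64% of all genes tested in the same directions. All 10 that rose were of the widespread class, and of the 12 that fell 9 were muscle forms. The median difference on the log2(TPM + 1) scale was 1.28 for the 13 widespread forms tested, -0.94 for the 15 muscle forms and -0.31 for the 7 shared steps, against 0.66 for all 13041 genes. That last value is itself a shift of the whole distribution, so a member at 0 lay below the typical gene. No member that passed the test changed its sign when the libraries were rescaled, although the split moved: scaling by median of ratios left 5 higher and 20 lower, with Eno1, Pfkfb4, Pfkp, Pygb and Pygl no longer called. Aldoa, Fbp2, Gapdh, Gpi1, Ldha, Pgk1, Slc16a1 and Slc16a3 were called lower under this scaling though not before it. The study's methods place the non-injured muscle in a first sequencing batch and the WT and KO time course in a second, and injured muscle of the first day in both. The labels tie no library to a batch, so batch and injury cannot be told apart in this comparison. Levels in bulk muscle cannot tell fewer cells of a type from less RNA in each cell.

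Leukocyte and cell cycle markers moved in the same comparison. All 6 macrophage and leukocyte markers, all 5 neutrophil markers (S100a8, S100a9, Csf3r, Retnlg, Mmp9) and all 5 cell cycle markers (Mki67, Top2a, Ccnb1, Cdk1, Birc5) rose, and the leukocyte sum went from 129 to 169 TPM in the controls to 679 to 3036 TPM on WT D1. Of the 10 myofibre markers, 3 fell. Their part in the members' changes was not tested.

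**Figure D1:**
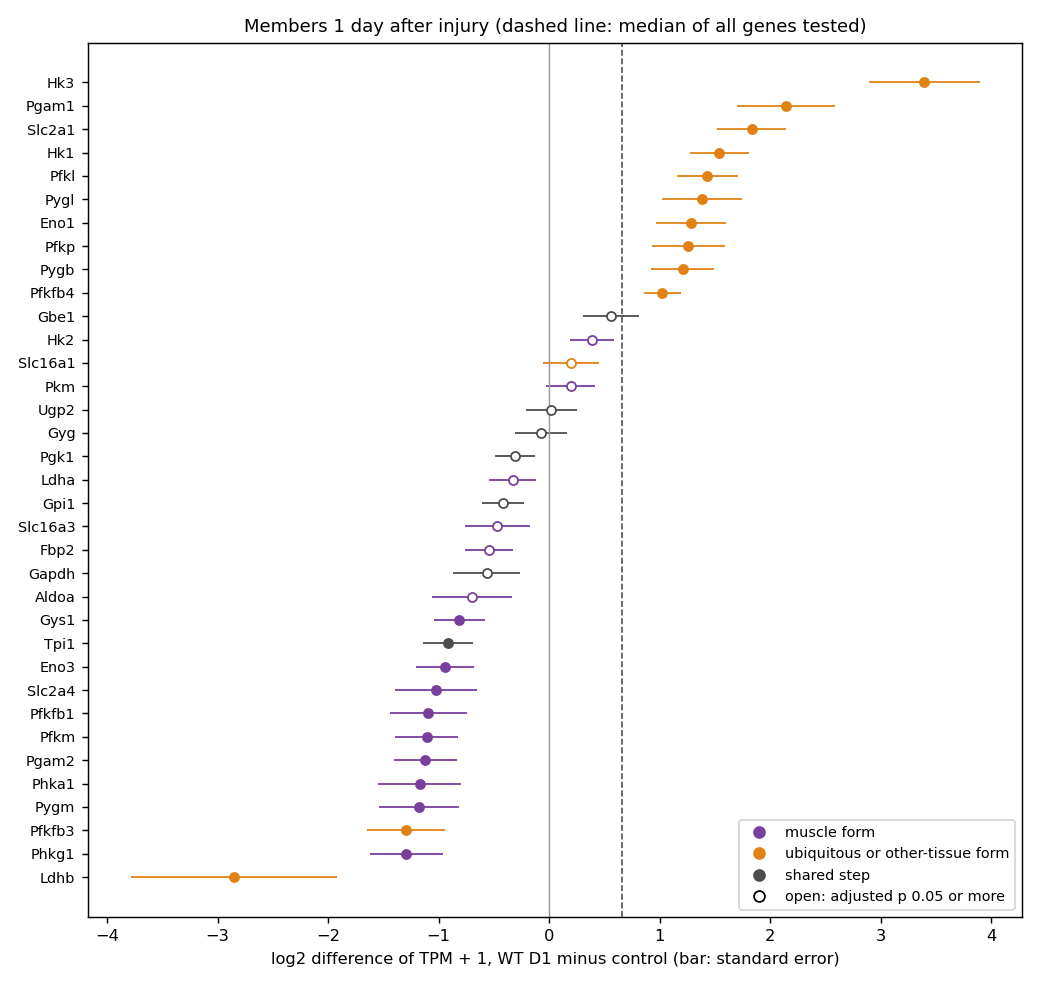
Each row is 1 of the 35 members tested, and the x axis gives its log2 difference of TPM + 1, WT D1 minus control, with the standard error as a bar, 3 libraries a group; colours mark the class and open points did not pass the test. Widespread forms fill the right side up to Hk3 at 3.40, muscle forms fill the left, and Ldhb at -2.86 is the widespread form farthest to the left.

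Glucose enters the fibre through Slc2a4 (GLUT4), the insulin-responsive transporter of muscle and fat, and enters most other cells through Slc2a1 (GLUT1). Slc2a1 read 5.15, 3.67 and 4.8 TPM in the controls and 21.8, 26.6 and 10.97 TPM on WT D1, a rise of 1.83 ± 0.31 (SE) on the log2(TPM + 1) scale with an adjusted p of 0.00288 (limma). The groups did not overlap. Slc2a4 read 307.7, 225.9 and 292.5 TPM in the controls and 141.3, 73.0 and 231.9 TPM on WT D1, a fall of -1.02 ± 0.37 with an adjusted p of 0.041. Here WT D1 replicate 3 reached into the control range, and the call was lost without any 1 of the 3 controls, without WT D1 replicate 1 or without WT D1 replicate 2, with adjusted p-values of up to 0.123 over all alternatives.

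Hexokinase traps glucose as glucose 6-phosphate, and its 3 genes here parted. Hk3 rose from 0.44, 0.33 and 0.41 TPM to 17.1, 28.1 and 4.98 TPM, the largest difference of any member (3.40 ± 0.50, adjusted p = 0.00204). Hk1, the housekeeping form, rose from 7.11, 5.73 and 6.37 to 21.0, 29.3 and 13.8 TPM (1.54 ± 0.27, adjusted p = 0.00297). Hk2, the insulin-regulated form of muscle, had 110.9, 67.6 and 88.3 TPM in the controls and 115.2, 107.6 and 120.5 TPM on WT D1, which did not pass the test, and the sign of its difference turned under the 3 rescalings of the libraries. Hk2 was the muscle form with the highest difference on D1, 0.39 where the muscle forms had a median of -0.94.

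Phosphofructokinase commits the sugar to glycolysis. Its muscle subunit Pfkm fell from 1650, 1160 and 1579.8 TPM to 648, 473 and 979.97 TPM (-1.11 ± 0.29, adjusted p = 0.0116), while the liver subunit Pfkl (1.43 ± 0.28) and the platelet subunit Pfkp (1.26 ± 0.33) rose. No library of WT D1 reached the range of the controls in any of the 3. The PFKFB enzymes set the level of fructose 2,6-bisphosphate, the activator of phosphofructokinase, and they moved in both directions. Pfkfb1 fell by 1.09 and Pfkfb3 by 1.29 on the log2(TPM + 1) scale, and Pfkfb4 rose by 1.02. The Pfkfb1 call was lost without any 1 control, and the Pfkfb3 call without control replicate 1 or 2 or WT D1 replicate 1 (adjusted p of up to 0.0814 and 0.056).

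The triose steps and aldolase are the bulk of the pathway by level. Tpi1, triose phosphate isomerase, had 2473, 2142 and 2234 TPM in the controls and 1101, 1019 and 1569 TPM on WT D1 (-0.92 ± 0.23, adjusted p = 0.00936). It was the only shared step to pass the test before rescaling. Aldoa, Gapdh and Pgk1 had differences of -0.70, -0.57 and -0.31 that did not pass. Under median-of-ratios scaling Aldoa (-1.49), Gapdh (-1.36), Pgk1 (-1.10) and Gpi1 (-1.21) passed as well, so which of these steps passed depended on the scaling.

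Phosphoglycerate mutase and enolase each have a muscle and a widespread gene, and these moved in opposite directions. Pgam2, the muscle mutase, read 3927, 3439 and 3667 TPM in the controls and 1701, 1165 and 2424 TPM on WT D1 (-1.12 ± 0.29, adjusted p = 0.0108). Pgam1, the widespread mutase, went from 23.5, 17.5 and 25.3 TPM to 116.7, 184.7 and 45.7 TPM (2.14 ± 0.44, adjusted p = 0.00496). All libraries of WT D1 lay outside the control range in both genes, downward for Pgam2 and upward for Pgam1. Eno3, the muscle enolase, fell from 5240, 4885 and 4748 TPM to 2463, 1998.5 and 3499 TPM (-0.94 ± 0.26, adjusted p = 0.0154). Eno1, the widespread enolase, rose from 144.8, 111.2 and 122.0 TPM to 333, 472 and 182 TPM (1.28 ± 0.32, adjusted p = 0.00968). The Eno3 call was lost without any 1 of the 3 controls, with adjusted p-values of up to 0.147 over all alternatives.

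Promoter windows are shown for this mutase pair and for Pygm, since these genes moved in opposite directions in the same libraries. RefSeq windows of 300 bases around the start (GRCm38) were matched for 35 of the 36 members, 51 windows in all. CAGCTG, a palindromic E-box core that myogenic factors can bind, was found in windows of 9 of 14 matched muscle forms (Aldoa, Pgam2, Eno3, Pygm, Phka1, Fbp2, Pfkfb1, Gys1 and Pkm), and of 0 of 14 widespread forms. By window this was 9 of 24 muscle windows, 0 of 19 widespread windows and 11 of the members' 51 windows (21.6%), beside 16.3% of all 32851 windows. ACGTG, searched on both strands and the core of the hypoxia response element, was found in windows of 8 muscle forms and 9 widespread forms, in 24 of the members' 51 windows (47.1%) and in 19.6% of all windows. The MEF2 site was found for Pgam2 and Pfkfb1 (3.19% of all windows) and the SRF CArG box for Ldha (1.63% of all windows). The 250 bases before the start are printed 5′ to 3′ on the gene's strand, with the motifs in capitals. In Pgam2 (chr11:5803797-5804046, minus strand) CAGCTG starts 125 and the MEF2 site 80 bases before the gene's start. In Pgam1 (chr19:41911621-41911870, plus strand) ACGTG starts 114 bases before the start, and in Pygm (chr19:6384158-6384407, plus strand) CAGCTG starts 168 and 8 bases and ACGTG, on the opposite strand, 61 bases before it.
Pgam2: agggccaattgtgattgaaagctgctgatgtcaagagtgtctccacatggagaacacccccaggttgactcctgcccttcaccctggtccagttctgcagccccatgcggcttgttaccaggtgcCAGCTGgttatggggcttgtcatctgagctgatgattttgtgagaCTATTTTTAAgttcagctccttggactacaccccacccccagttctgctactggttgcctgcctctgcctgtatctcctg
Pgam1: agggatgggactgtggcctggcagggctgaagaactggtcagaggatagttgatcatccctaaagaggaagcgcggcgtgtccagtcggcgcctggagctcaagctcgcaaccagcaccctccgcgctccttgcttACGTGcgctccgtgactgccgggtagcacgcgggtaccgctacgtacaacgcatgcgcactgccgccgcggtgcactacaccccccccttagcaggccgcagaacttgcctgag
Pygm: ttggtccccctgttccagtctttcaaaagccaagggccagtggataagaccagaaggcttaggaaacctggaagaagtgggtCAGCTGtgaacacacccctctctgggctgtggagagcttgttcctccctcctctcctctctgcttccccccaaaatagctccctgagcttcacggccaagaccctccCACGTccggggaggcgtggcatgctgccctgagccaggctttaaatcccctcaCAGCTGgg
A match describes letters in a window and was not tested as a site.

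Pyruvate kinase and lactate dehydrogenase end the pathway. Pkm, whose transcripts include the muscle and the proliferative isoform, had 2557, 1936 and 2370 TPM in the controls and 2308, 2481 and 3068 TPM on WT D1, with overlapping groups. Ldha, the muscle subunit, had a difference of -0.33 that did not pass, and 1 of -1.12 under median-of-ratios scaling that did. Ldhb, the heart subunit, had 286.7, 125.4 and 292.6 TPM in the controls and 165.6, 18.5 and 7.65 TPM on WT D1, the largest fall of any member (-2.86 ± 0.93, adjusted p = 0.0278). This fall came from replicates 2 and 3, replicate 1 lay within the control range, and the call was lost without WT D1 replicate 2 or any 1 of the controls (adjusted p of up to 0.132 over all alternatives). Lactate and pyruvate leave the fibre through Slc16a3 (MCT4) and enter oxidative cells through Slc16a1 (MCT1), and neither passed the test, with differences of -0.47 and 0.20. Under median-of-ratios scaling both were called lower, at -1.26 and -0.54.

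RNA of the muscle genes for glycogen breakdown fell. Pygm, muscle glycogen phosphorylase, read 3956, 3471 and 3782 TPM in the controls and 1382, 1083 and 2982 TPM on WT D1 (-1.18 ± 0.36, adjusted p = 0.0218). Phosphorylase kinase, which activates it, fell at its muscle catalytic subunit Phkg1, from 325.9, 319.4 and 309.7 TPM to 122.3, 78.8 and 223.4 TPM (-1.29 ± 0.33, adjusted p = 0.0108), and at its muscle regulatory subunit Phka1 (-1.17 ± 0.37, adjusted p = 0.026). The liver and brain phosphorylases rose, Pygl from 2.39, 2.39 and 2.51 TPM to 10.2, 12.3 and 3.83 TPM (1.38) and Pygb from 4.98, 3.95 and 5.37 TPM to 10.7, 19.2 and 8.83 TPM (1.21). WT D1 replicate 3 was the nearest to the controls in Pygm, Phkg1, Pygl and Pygb alike. The Pygm call was lost without any 1 control or without WT D1 replicate 1 or 2 (adjusted p of up to 0.0864), and the Phka1 call without control replicate 1 or 3 or WT D1 replicate 1 or 2 (adjusted p of up to 0.0885).

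On the synthesis side Gys1, muscle glycogen synthase, fell from 185.4, 118.1 and 175.2 TPM to 107.6, 70.5 and 91.6 TPM (-0.81 ± 0.23, adjusted p = 0.0163). The groups did not overlap, and the call was lost without control replicate 1 or 3 (adjusted p of up to 0.0672). Gyg, the primer glycogenin, Gbe1, the branching enzyme, and Ugp2, which makes the activated glucose, had differences of -0.07, 0.56 and 0.02 that did not pass, nor did the muscle fructose bisphosphatase Fbp2 at -0.54. Fbp2 passed under median-of-ratios scaling, at -1.30.

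Of the 12 falling calls, 4 to 17 were made when 1 library was left out, with the fewest without control replicate 1 and the most without WT D1 replicate 3. The 10 rising calls gave 9 or 10. Hk1, Hk3, Pfkl, Pgam1, Slc2a1, Pfkm, Phkg1 and Tpi1 passed in every alternative in which they were tested.

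The change of balance can be read without any scaling between libraries as the share that the muscle form holds of its own isozyme group within a library. In control muscle this share averaged 99.4% for Pgam2, 97.5% for Eno3, 99.3% for Pfkm, 92.8% for Hk2, 98.4% for Slc2a4 and 99.8% for Pygm. In these 6 groups each WT D1 library lay below each control library within the table that holds both. The muscle form still held most of each group on WT D1, from 65.3 to 86.5% for Hk2 up to 97.2 to 99.6% for Pygm. The share of Slc16a3 beside Slc16a1 overlapped between WT D1 (90.4 to 97.1%) and the controls (95.5 to 96.5%). The Hk2 share then read 28.1, 51.4 and 60.2% on WT D4, and returned to 87.4 to 93.8% on D14 beside 91.8 to 93.6% in the controls. Eno3 held 88.2, 81.0 and 95.1% on WT D1, 63.0, 83.9 and 87.4% on D4, and 97.0 to 97.9% on D14. Aldoa, with no rival of any level, held 99.97% or more in all 27 libraries. Ldha went its own way, since its share depended on Ldhb: it was 89.3 to 95.1% in the controls, 92.0 to 99.7% on WT D1 and 84.0 to 91.7% on WT D14.

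**Figure D2:**
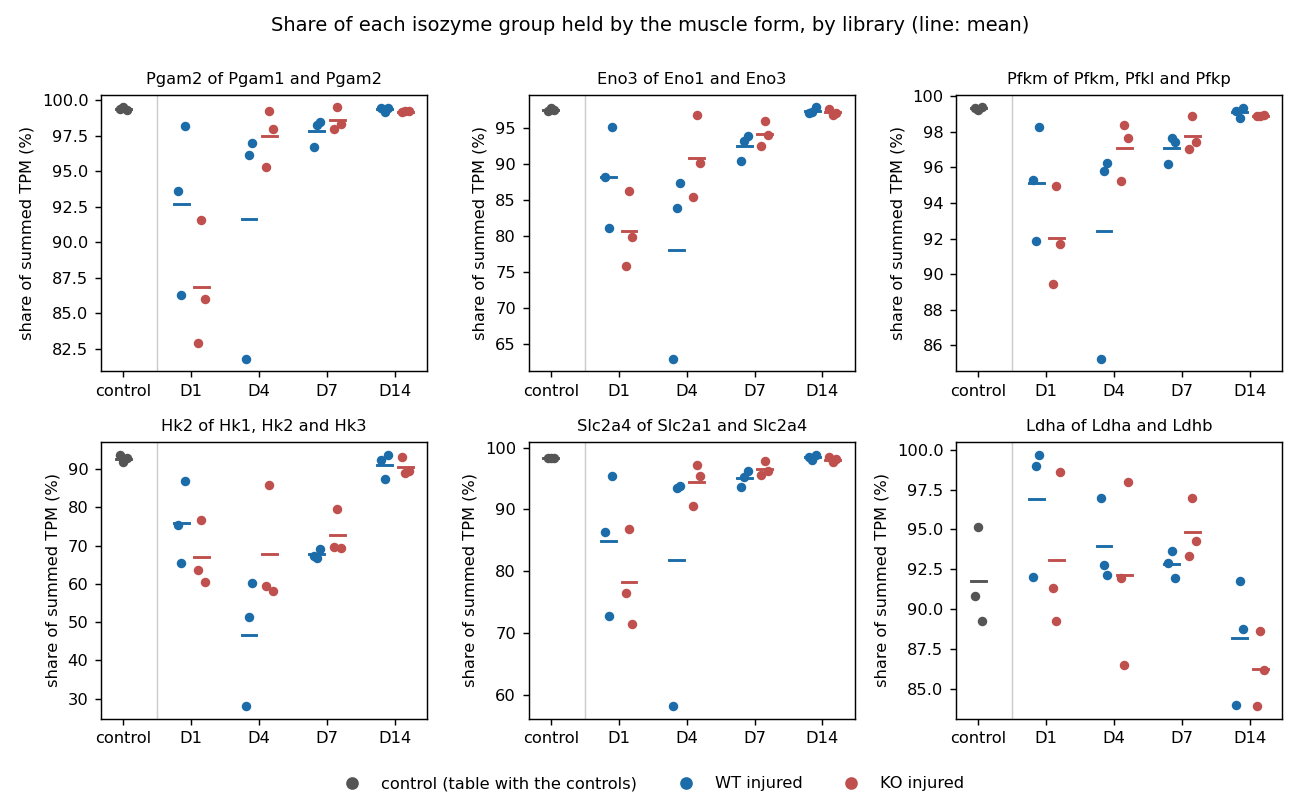
Points are libraries, lines are group means of 3, and the y axis is the percent of the summed TPM of an isozyme group held by the muscle form, with each panel on its own range. Pgam2, Eno3, Pfkm, Hk2 and Slc2a4 drop on D1 and D4 and are back near the controls on D14, and WT D4 replicate 1 is the lowest point in each of these 5 panels (28.1% for Hk2, 58.2% for Slc2a4). Control points come from the table that holds the controls and injured points from the other.

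Between D1 and D4 in WT, hexokinase Hk2 and glycogen branching enzyme fell, while the enolase Eno1 rose further. Of 36 tested, 3 rose (Eno1, Pygb and Tpi1) and 5 fell (Gbe1, Hk2, Pfkfb4, Pkm and Ugp2), beside 14.6% and 5.27% of all 15718 genes. Hk2 went from 115.7, 108.1 and 120.6 TPM to 20.9, 35.9 and 52.3 TPM (-1.72 ± 0.26, adjusted p = 0.000216), and Pfkfb4 from 45.4, 54.2 and 58.2 TPM to 22.2, 20.5 and 20.8 TPM (-1.27 ± 0.19, adjusted p = 0.000174). The D1 and D4 libraries did not overlap in either gene, and both calls were made under every alternative. Gbe1 fell from 46.2, 29.9 and 32.5 TPM to 9.39, 18.5 and 19.4 TPM (-1.19 ± 0.30, adjusted p = 0.0086), and Ugp2 fell by 1.05, while Gys1, the synthase they serve, had 107.9, 70.6 and 91.6 TPM and then 90.6, 137.7 and 178.8 TPM with overlapping groups. Pkm fell by 0.72.

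Eno1 rose from 332.4, 471.3 and 182.0 TPM on WT D1 to 1071, 622 and 575 TPM on D4 (1.25 ± 0.37, adjusted p = 0.0216), and all D4 libraries were above all D1 libraries. Tpi1 rose from 1099.7, 1018 and 1568 TPM to 1532, 2046 and 2380 TPM (0.70 ± 0.20, adjusted p = 0.0165) although the groups touched, and its call was lost under median-of-ratios or quantile scaling (adjusted p of up to 0.398) or without WT D1 replicate 1 or 2 or WT D4 replicate 2 or 3. Without the 2 D4 libraries that stand apart there were again 3 higher and 5 lower calls, but Ugp2 (adjusted p = 0.0502) and Pygb (adjusted p = 0.055) no longer passed. Without WT D1 replicate 3 the Eno1, Pygb, Pkm and Ugp2 calls were lost, and without WT D4 replicate 1 those of Eno1, Pygb, Gbe1, Pkm and Ugp2. Over the same step the leukocyte sum went from 680 to 3034 TPM to 2266 to 4491 TPM, and the sum of 5 markers of regenerating fibres (Myh3, Myh8, Myog, Mymk, Chrna1) from 49.4 to 78.1 TPM to 1125 to 1636 TPM.

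Few members passed between D4 and D7 in WT. Phkg1 rose, from 39.0, 71.7 and 86.9 TPM to 143.7, 157.5 and 165.3 TPM (1.30 ± 0.36, adjusted p = 0.0284), and Eno1 fell by 1.24 (adjusted p = 0.0365), 1 member in each direction beside 3.04% and 9.31% of all genes. Neither call was made without WT D4 replicate 1, WT D7 replicate 2 or WT D7 replicate 3, nor without the pair of D4 libraries that stand apart (adjusted p = 0.0864 and 0.0512). In the same step 13 of 15 muscle forms had a positive difference and 13 of 14 widespread forms a negative one, around medians of 0.42 and -0.74, where all genes had a median of -0.24.

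Between D7 and D14 in WT, Eno1, Hk1, Pgam1, Pygb and Pfkp, all widespread forms, fell and Hk2 rose. Eno1 fell from 364.6, 316.6 and 250.9 TPM to 127.9, 120.4 and 94.2 TPM (-1.43 ± 0.37, adjusted p = 0.0122) and Hk1 from 18.1, 18.3 and 16.9 TPM to 6.32, 8.13 and 5.45 TPM (-1.31 ± 0.27, adjusted p = 0.00646). Pgam1 (-1.37), Pygb (-1.22) and Pfkp (-1.16) fell as well, which made 5 of 14 widespread forms lower, near the 30.9% of all genes that were lower, and Hk2 was the 1 member that rose (0.84 ± 0.26, adjusted p = 0.023), beside 0.923% of all genes. Hk2 went from 45.7, 42.3 and 44.4 TPM to 82.3, 67.6 and 91.9 TPM, beside 67.6 to 110.9 TPM in the controls of the other table. All 15 muscle forms had a positive difference (median 0.61) while all genes had a median of -0.45, and 11 of 14 widespread forms had a negative one, where only 15.1% of all genes had a positive one. Without WT D14 replicate 3 none of the 5 falling calls was made, without WT D7 replicate 1 the Eno1, Pfkp, Pgam1 and Pygb calls were lost, and the Hk2 call was lost without WT D7 replicate 1 or 2 or WT D14 replicate 1 or 3. The Pgam1 call was lost with any 1 of the 6 libraries left out. All 6 leukocyte markers and all 5 cell cycle markers fell in this step as well.

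In KO muscle the muscle mutase, enolase and Tpi1 rose between D1 and D4 and widespread forms fell. From D1 to D4, 6 members rose (Eno3, Gys1, Ldha, Pfkm, Pgam2 and Tpi1) and 6 fell (Gbe1, Hk2, Hk3, Pfkfb4, Pgam1 and Slc2a1), beside 7.18% and 12.2% of all genes. Tpi1 went from 779, 1068 and 912.5 TPM to 1965, 2617 and 2769 TPM (1.41 ± 0.20, adjusted p = 0.000204), a call made under every alternative in which the gene was tested. Pgam2 went from 1022, 1560.2 and 1291 TPM to 2109.6, 3999 and 3295 TPM (1.25 ± 0.30, adjusted p = 0.00914), and Eno3 from 1583, 2396 and 2014 TPM to 3188, 5433 and 4986 TPM (1.17 ± 0.27, adjusted p = 0.0075). The groups were apart in all 3 genes.

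The members that fell from KO D1 to D4 were mostly widespread forms. Hk3 went from 29.8, 17.99 and 32.2 TPM to 6.80, 0.95 and 5.91 TPM (-2.51 ± 0.55, adjusted p = 0.00481), and Slc2a1 from 26.99, 23.3 and 29.9 TPM to 12.9, 8.44 and 6.18 TPM (-1.49 ± 0.36, adjusted p = 0.00915). Pgam1 fell by 1.61, and Gbe1, Hk2 and Pfkfb4, which also fell in WT, by 1.14, 0.98 and 0.84. KO D4 replicate 2, the library with the fewest leukocyte markers, had the lowest Hk3 of the group. Without it and WT D4 replicate 1, 3 members rose (Eno3, Pgam2 and Tpi1) and 5 fell, and Gys1, Ldha, Pfkm and Pgam1 had adjusted p-values of 0.0738, 0.0514, 0.0715 and 0.0996. Gys1, Ldha, Pfkm and Pgam1 also lost their calls without KO D1 replicate 1 or 3 or KO D4 replicate 2 or 3, Gbe1 without KO D1 replicate 3 or KO D4 replicate 3, and Hk2 without KO D1 replicate 2 or KO D4 replicate 3. Over the same days 4 of 5 neutrophil markers fell (median of the list -3.60), 2 of 6 macrophage and leukocyte markers fell (median -1.30) and 3 of 5 regenerating myofibre markers rose (median 4.17), and their part in the members' changes was not tested. Whether the D1 to D4 step differed between the genotypes was not tested by itself.

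From D4 to D7 in KO no member passed by limma, and 0% of all genes did, with 1 member and 1555 genes at an unadjusted p under 0.05. From D7 to D14 in KO no member passed either, beside 0.0827% of genes higher and 0.477% lower, with 9 members and 3035 genes (19.3%) at an unadjusted p under 0.05. KO D7 replicate 2 had 183644 TPM of myofibre markers and 389 TPM of leukocyte markers, where the other KO D7 libraries had 122792 to 125886 and 1017 to 1046 TPM. On KO D14 the shares of the muscle forms had come back to 99.1 to 99.2% for Pgam2, 96.7 to 97.6% for Eno3 and 88.9 to 93.2% for Hk2.

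A level per myofibre marker RNA sets the members against the mature fibre RNA in the sample. On this scale, TPM per 1000 TPM of the 10 mature myofibre markers, the glycolytic genes did not move as a block. Pgam2 stood at 19.9 to 22.4 in the controls of the other table, at 14.4 to 16.9 on WT D1 and at 27.4 to 34.8 on WT D4. In KO it stood at 15.2 to 17.1 and 30.2 to 33.2 on the same days. In both genotypes D4 was apart from D1 and from D7. Eno3 followed with 21.1 to 25.0 on WT D1 and 41.5 to 49.7 on WT D4, and 23.8 to 26.2 and 41.2 to 50.1 in KO. Tpi1 had 9.37 to 12.6 on WT D1 and 26.1 to 39.8 on WT D4, and 10.8 to 12.0 and 19.8 to 30.9 in KO. Tpi1 is also used by every other cell in the sample, so its ratio is not a level inside fibres. RNA of other cells was not separated for the other genes either.

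Aldoa, at the step before Tpi1, had 124.4 to 128.5 on WT D1 and 104.9 to 147.2 on WT D4, and 126.9 to 139.7 and 127.8 to 143.9 in KO, with overlap in both genotypes. Hk2 went the other way, from 0.72 to 1.34 on WT D1 to 0.46 to 0.66 on WT D4. KO Hk2 did the same, from 1.12 to 1.43 down to 0.35 to 0.77. Pygm stood at 14.0 to 17.7 on WT D4 and 18.6 to 20.01 on KO D4, and at 14.7 to 15.9 on WT D7 and 16.4 to 19.0 on KO D7. Its genotypes did not overlap on either day and overlapped on D1 and D14. Pygm was not alone in this. KO was also apart upward for Gapdh on D1, Phkg1 and Phka1 on D4, and Pgk1 and Fbp2 on D14. It was apart downward for Gys1, Gpi1 and Pgk1 on D7 and for Gapdh on D14. These ratios were read after the levels were known and carry no test. They were not computed for all genes, so no background share can be set beside the genes that lay apart. With 3 libraries a group, some genes lie apart by order alone, so the separation of Pygm is not read as a genotype effect. Several of the 10 markers, Mb and Myh1 among them, differ between fibre types, so the scale moves with fibre type as well as with fibre number.

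**Figure D3:**
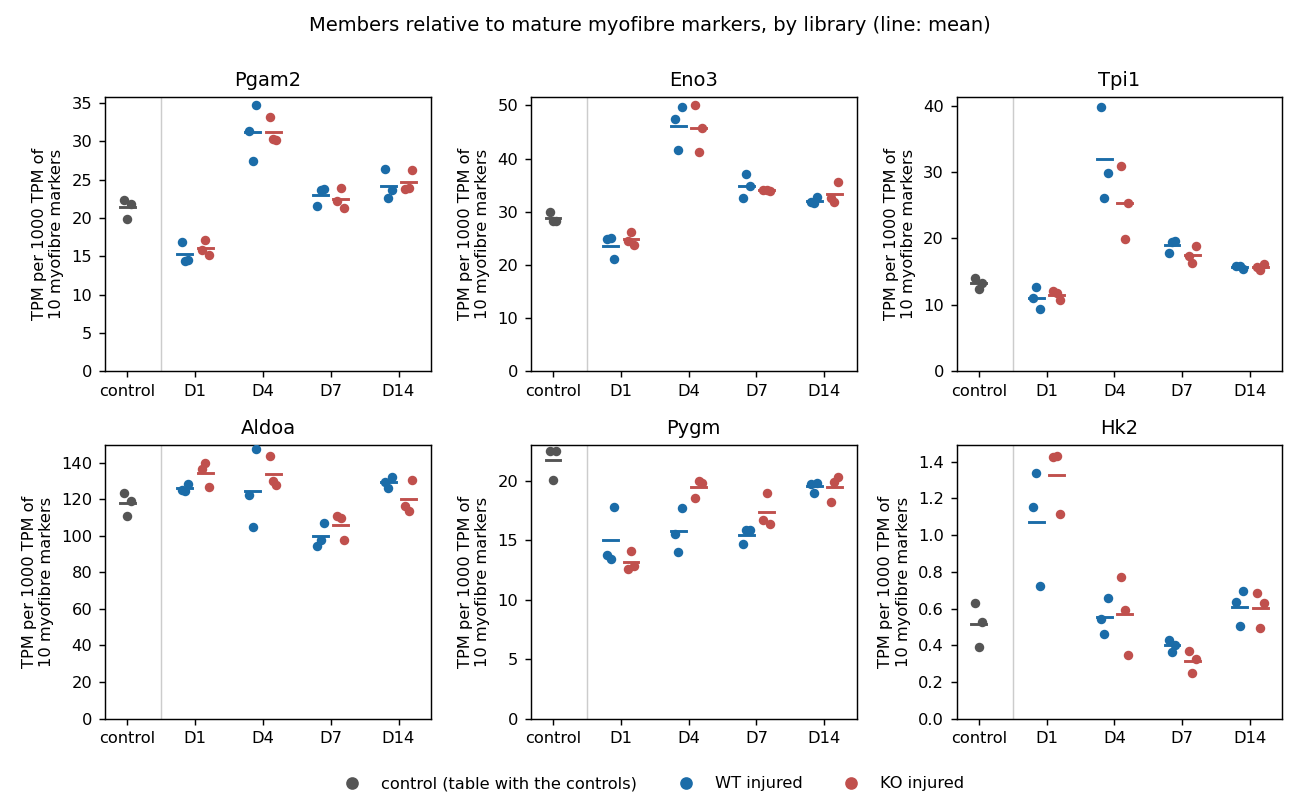
Points are libraries, lines are group means of 3, and the y axis is TPM of the gene per 1000 TPM of 10 mature myofibre markers, starting at 0. Pgam2, Eno3 and Tpi1 peak on D4 in both genotypes (Pgam2 means of 31.2 and 31.2), Aldoa overlaps between D1 and D4, and Hk2 is highest on D1. Control points come from the table that holds the controls and injured points from the other. Aldoa on WT D1 is plotted at 124.4 to 128.5, while in the controls' table it read 110.2 to 114.2 beside 110.9 to 123.5 in the controls.

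KO and WT muscle were then compared day by day. No member passed by limma on D1, D4, D7 or D14, with lowest adjusted p-values among members of 0.873, 0.212, 0.776 and 1, and 0.00636%, 0%, 0% and 0% of all genes passed on these days. At an unadjusted p under 0.05 there were 1, 15, 0 and 1 members, beside 5.38%, 22.7%, 3.06% and 2.06% of all genes. On D4, 12 members were higher in KO at that level, all muscle forms, beside 3.65% of all genes, and 3 were lower (Eno1, Hk1 and Pygb), all widespread forms, beside 19.1% of all genes. All 15 muscle forms had a positive D4 difference with a median of 0.70, and 11 of 14 widespread forms a negative one with a median of -0.48, where all genes had a median of -0.28.

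Phkg1 had the smallest unadjusted p of the members on D4. It read 39.0, 71.7 and 86.9 TPM in WT and 89.1, 226.1 and 147.4 TPM in KO, 1.19 ± 0.36 on the log2(TPM + 1) scale with an adjusted p of 0.212 by limma. The groups did not overlap, but the highest WT and the lowest KO library were close. Pygm read 599, 1097 and 1413 TPM in WT and 1181, 2639 and 2161 TPM in KO (0.95 ± 0.36, adjusted p = 0.212), and Eno1 1071, 622 and 575 TPM in WT and 542, 184 and 546 TPM in KO (-0.94 ± 0.37, adjusted p = 0.212). The extremes in these genes were WT D4 replicate 1 and KO D4 replicate 2, the libraries at the ends of the myofibre and leukocyte sums. Without both, the differences were 0.53 for Phkg1, 0.36 for Pygm, 0.15 for Eno3, 0.11 for Pgam2 and -0.14 for Eno1, with an adjusted p of 1 for each, and Hk2 went from 0.61 to -0.01.

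**Figure D4:**
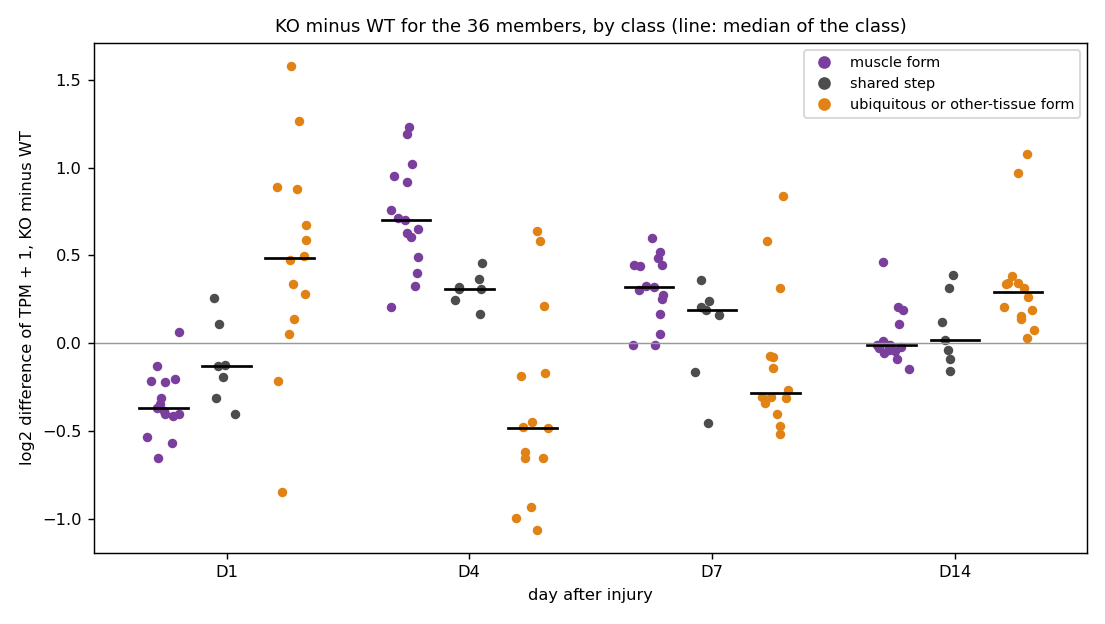
Each point is 1 of the 36 members, the y axis is its log2 difference of TPM + 1, KO minus WT, and black lines are class medians, on each day after injury. On D4 the muscle forms lie above 0 (median 0.70) and most widespread forms below it (median -0.48); on D1 the medians are -0.37 and 0.48, and no point on any day passed the test.

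The other days had smaller class medians, read here beside the share of all genes with a positive difference, which was 63.8% on D1, 20.5% on D7 and 71.4% on D14. On D1, 14 of 15 muscle forms had a negative difference (median -0.37) and 12 of 14 widespread forms a positive one (median 0.48), and the myofibre sum was 80638 to 167296 TPM in WT and 64804 to 91317 TPM in KO. On D7 the medians were 0.32 and -0.29, and on D14 -0.01 and 0.29, with a positive D14 difference in all 14 widespread forms. Pygl on D1 read 10.2, 12.4 and 3.83 TPM in WT and 19.6, 10.2 and 42.4 TPM in KO (1.27 ± 0.48, adjusted p = 0.873), and its highest library, KO D1 replicate 3, was also the one with the most neutrophil marker RNA (3605 TPM, where the other KO D1 libraries had 297 and 598 TPM).

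Averaged over the days no member passed, with 0.00636% of all genes passing and a lowest adjusted p among members of 0.861. Fbp2, the muscle fructose bisphosphatase, was the 1 member at an unadjusted p under 0.05, beside 556 genes (3.54%), with a KO minus WT difference of 0.39 ± 0.16 and an exact two-sided permutation p of 0.0402 over 160000 reassignments of genotype within days. It was higher in KO on 3 of the 4 days. In the test of whether the genotype difference changed between days no member passed (0% of all genes), with a lowest adjusted p of 0.527 and 5 members and 1203 genes (7.65%) at an unadjusted p under 0.05 (members Phkg1, Pygm, Ldha, Slc16a1 and Phka1). The same genes on successive days shared their WT and KO libraries, so steps within a genotype and differences between genotypes are not independent of each other.

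Pfkfb3, an inducible PFKFB that drives glycolysis in several cell types, had KO and WT libraries apart in opposite directions on D1 and D14. KO libraries lay apart downward on D1 in 2 of 36 members, beside 3.38% of all genes. They lay apart upward on D14 in 3 of 36 members, beside 7.37% of all genes. On D1 Pfkfb3 read 34.0, 35.4 and 73.3 TPM in WT and 24.9, 22.3 and 25.9 TPM in KO, and on D14 55.8, 50.7 and 47.1 TPM in WT and 87.0, 240.5 and 61.6 TPM in KO. The D14 difference was 1.08 ± 0.51 with an adjusted p of 1 by limma, and the control level was 158.9, 119.8 and 75.0 TPM. The sum of 3 adipocyte markers (Adipoq, Plin1, Cidec) was 5.55 to 10.6 TPM on WT D14 and 38.1 to 158 TPM on KO D14, with KO D14 replicate 2 the highest in both, and its part in the Pfkfb3 level was not tested.

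Ldhb had the widest range of the members over the injured libraries, 59.2-fold from lowest to highest, and much of it lay within groups. On D1 it read 165.6, 18.5 and 7.64 TPM in WT and 142.2, 218.7 and 22.8 TPM in KO. Slow oxidative fibres are rich in this heart subunit, which favours the use of lactate over its making, so the summed TPM of 7 slow and oxidative fibre genes (Myh7, Myh2, Tnnt1, Tnni1, Tnnc1, Myl2, Myl3), a list chosen after the Ldhb values were seen, is set beside it. The sum on D1 was 1509, 86.0 and 20.3 TPM in WT and 1129, 3523 and 83.7 TPM in KO. The 3 libraries with the least Ldhb were the 3 with the least slow fibre RNA, and Myh7, the slow myosin, was at 1.30, 0.33 and 0.39 TPM in them. On D4 the list split. In WT D4 replicate 1 the sum was 2513 TPM, with Myh7 at 3.12, Myl3 at 3.63 and Tnni1 at 1134 TPM. In KO D4 replicate 3 it was 1737 TPM, with Myh7 at 0.57, Myl3 at 3.76 and Tnni1 at 909 TPM. The sum is therefore not a measure of slow fibres on that day. Over the 24 injured libraries Spearman's rho with the sum was 0.62 for Ldhb and -0.04 for Ldha, a description of libraries that share groups and the TPM total. How much of the slow part of the muscle each sample held cannot be told apart from a loss of slow fibre RNA.

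**Figure D5:**
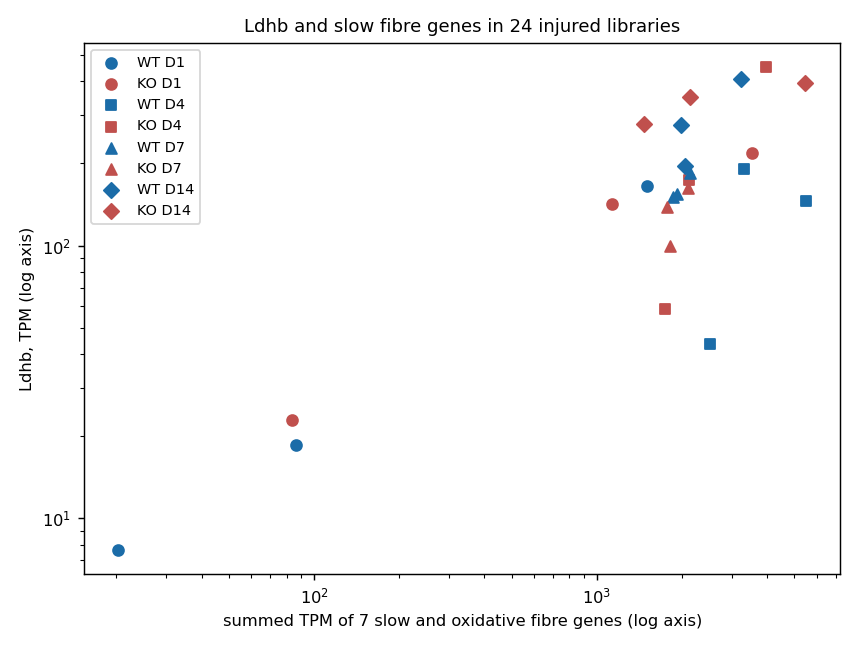
Each point is 1 of 24 injured libraries, with the summed TPM of 7 slow and oxidative fibre genes on the x axis and Ldhb in TPM on the y axis, both log axes; colour marks genotype and shape the day. WT D1 replicates 2 and 3 and KO D1 replicate 3 lie apart at the lower left with Ldhb of 18.5, 7.64 and 22.8 TPM.

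Some members share sequence or position with other genes. The processed pseudogene Pgam1-ps2 had a mean of 18.2 TPM, 22.0% of the mean of Pgam1, and moved with it: 38.4, 35.5 and 5.64 TPM on WT D1 and 1.18, 2.05 and 1.63 TPM in the controls, so reads of the pair may be divided between them and the Pgam1 level is uncertain to that degree. Copies of the other members were below 0.1% of their gene. More than 10% of the exon bases of Gpi1, Pfkm and Pkm lie in another annotated gene, and the strandedness of the counting is not given in the sources used here. WT D1 was quantified for each table separately, and 2 of 36 members, Pfkfb4 and Aldoa, differed by over 5% between the tables.

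Other genes of the pathway were counted beside the members. Among further glycolysis genes, Eno2, the neuronal enolase, rose by 1.31 and Adpgk by 1.05 on WT D1 against control, beside 55.4% of all genes. Gpd1, the cytosolic glycerol phosphate dehydrogenase, fell by 1.37, Bpgm by 1.20 and Gpd2 by 0.77, beside 5.64% of all genes. Of 14 further glycogen genes 5 rose, beside 55.4% of all genes, among them Pgm2 by 1.66 and the non-muscle phosphorylase kinase subunits Phka2 by 0.98 and Phkg2 by 0.95, and 2 fell, Pgm1 by 0.85 and the laforin gene Epm2a by 0.81, beside 5.64% of all genes. Of 4 further transport genes, Slc16a7 (MCT2) rose by 1.90, beside 55.4% of all genes. Ppp1r3a, which anchors a phosphatase to muscle glycogen, fell by 1.79 from WT D1 to D4, beside 5.27% of all genes. It rose by 1.67 from D4 to D7, beside 3.04% of all genes.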

How the data were processed

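RNA of mouse muscle was sequenced in paired ends after preparation with a SMARTER mRNA kit, per the labels. The authors deposited TPM per gene in 2 tables, which differ slightly for shared libraries, so control was compared with WT D1 only within the table that holds both. The build is mm10 per the labels, and the aligner and counter are not given in the sources used here. TPM keeps no depth, so no counting error can be given.

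Groups came from the sample labels, with 3 libraries each, described as biological triplicates. Log2(TPM + 1) values of genes with at least 1 TPM in at least 3 libraries were fitted with limma 3.58.1 in R 4.3.3 (8 group means for the 24 injured libraries, a second fit for control and WT D1, empirical Bayes with a variance trend), and p-values were adjusted by Benjamini-Hochberg over all genes tested. All 36 members are named, with the row of highest mean TPM where a symbol had several, and other pathway genes are counted and named for the largest differences. The members and lists were chosen with earlier results of these data known. The script was tested on simulated data. Shares and ratios to markers are descriptions without a test. Alternatives were a pseudocount of 0.1, no filter, a filter of 5 TPM, median-of-ratios and quantile scaling, removal of the 50 most abundant genes, library quality weights, a replicate block, summed rows, only the libraries compared, each library left out, and, added after seeing the data, 2 D4 libraries left out. Protein sequences were not analysed here, and 1 gene of the companion lists is not reported here. The study's methods speak of 2 sequencing batches, the first with non-injured muscle and the second with the time course, but the labels assign none and both tables hold the libraries of WT D1, so no batch term could be fitted and batch cannot be told apart from injury for control against WT D1.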

Additional observations from a re-analysis of the deposited data

Results flagged for a closer look

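Pfkfb3 had opposite differences between KO and WT on D14 and on D1, 1.08 and -0.85 on the log2(TPM + 1) scale. All 3 KO libraries were above all 3 WT libraries on D14 and below them on D1, beside 7.37% and 3.38% of all genes on these days. The difference between these 2 days was not tested for itself, and the limma test across all 4 days gave an unadjusted p of 0.0644 and an adjusted p of 0.527. KO D14 replicate 2, at 240.5 TPM, stood far above the other KO D14 libraries (87.0 and 61.6 TPM).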

How the results depend on the processing

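Of 363 counts of members under alternatives, 295 stayed within 1.5 times the reported count. Counts that were 0 both before and after are among the 295, as in most alternatives for KO against WT and KO D7 against D4. The 295 therefore overstates how stable the comparisons with calls were. WT D1 against control gave 5 higher and 20 lower members under median-of-ratios scaling, 6 higher under quantile scaling and 4 lower without the filter. WT D4 against D1 gave 0 higher and 2 lower with only the libraries compared. WT D7 against D4 gave 0 higher and 0 lower without the filter and without the 2 D4 libraries that stand apart, 2 and 0 under quantile scaling, 0 lower with abundant genes removed, 15 higher and 10 lower with quality weights and 4 lower with only the libraries compared. WT D14 against D7 gave 2 higher at a minimum of 5 TPM, 3 lower under either scaling, 10 higher and 9 lower with quality weights and 12 and 9 with only the libraries compared. KO D4 against D1 gave 3 higher without the filter, under median-of-ratios scaling and without the 2 D4 libraries, 0 higher with abundant genes removed, 3 lower with quality weights, and 1 and 1 with only the libraries compared. KO D14 against D7 gave 1 higher and 2 lower under median-of-ratios scaling, 1 and 1 under quantile scaling, 13 and 7 with quality weights, and 4 and 1 with only the libraries compared. KO against WT on D7 gave 1 with quality weights. The causes were not tested. Leaving out 1 library gave 9 to 10 higher and 4 to 17 lower for WT D1 against control, 1 to 3 and 3 to 9 for WT D4 against D1, 0 to 1 and 0 to 2 for WT D7 against D4, 0 to 1 and 0 to 4 for WT D14 against D7, 3 to 9 and 3 to 7 for KO D4 against D1, 0 to 1 and 0 to 1 for KO D14 against D7, and 0 for KO D7 against D4 and for KO against WT. Single members that were called, or in KO against WT had an unadjusted p under 0.05, kept direction in all but 1 of 1102 values: Hk2, KO against WT on D4, went to -0.01 (-0.0123) without the 2 D4 libraries, and 168 values lost a call. Of members not called for WT D1 against control, Hk2, Ugp2, Gbe1, Pkm and Slc16a1 changed sign under median-of-ratios scaling. Shares and ratios moved by less than the spread in all 936, but these alternatives could hardly have moved them further. Rescaling a library leaves its shares and ratios as they were. Leaving out 1 of 3 libraries always moves a group mean by less than the standard deviation of the 3. The 936 values therefore do not measure how stable the shares and ratios are.

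The labels do not say whether replicate numbers pair the samples. Deviations of same-numbered libraries correlated between -0.40 and 0.39 (4 of 12 pairs above 0.1). This cannot decide the question, since libraries of a group also differed in their cells. A replicate block gave 8 lower members for WT D4 against D1, and Gys1 lost its call for KO D4 against D1.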

Other observations

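The pentose phosphate pathway branches from glycolysis at glucose 6-phosphate and makes NADPH and ribose. All 7 of its genes (G6pdx, Pgls, Pgd, Rpe, Rpia, Tkt, Taldo1) rose on WT D1 against control by limma, beside 55.4% of all genes, with Pgd at 2.38, G6pdx at 1.69 and Tkt at 1.65 on the log2(TPM + 1) scale. From D7 to D14 in WT 5 of 7 fell, Pgd by 1.36 and Tkt by 1.25, beside 30.9% of all genes. In KO 4 of 7 (Pgd, Tkt, Taldo1 and Rpia) fell from D1 to D4, beside 12.2% of all genes.

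Of 11 genes of pyruvate entry into mitochondria and its control, 6 fell on WT D1 against control, beside 5.64% of all genes. Among them were the carriers Mpc1 (-0.61) and Mpc2 (-0.58) and Pdk4 (-1.88) and Pdk2 (-1.25), kinases that inhibit pyruvate dehydrogenase. The kinase Pdk3 (1.55) and Pdp1 (0.69), a phosphatase that activates the same enzyme, rose, beside 55.4% of all genes. Of 9 regulators, Hif1a (2.44) and Mlx (1.36) rose on WT D1 against control, beside 55.4% of all genes. Ppargc1a (-1.35) and Esrra (-0.63) fell, beside 5.64% of all genes. From D1 to D4 in KO 2 of the 9 regulators rose and 2 fell, beside 7.18% and 12.2% of all genes. Prkag3, the muscle gamma subunit of AMP kinase, was among those that rose (1.64, adjusted p = 0.000984 by limma).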
